A study of Mus musculus with 11 samples.

Results

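The primary cilium is a microtubule-based signalling antenna, and its assembly and content depend on a defined set of transport and gatekeeping proteins. The genes described here were a fixed list of 43 symbols that encode intraflagellar transport (IFT) proteins, the motors that move them, the BBSome with its chaperonins, the transition zone and a few associated cargo factors. They were listed by name and not by a cut on measured values, though earlier results of these data were known when they were chosen. All 43 of 43 were found among the 46078 gene identifiers counted. By role they comprised 11 IFT-B genes, 3 IFT-A genes, 5 motor genes, 6 BBSome genes, 2 BBS chaperonin genes, 10 transition zone genes, 4 genes for ARL small GTPases and lipidated cargo, and 2 genes for adaptors of the ciliary tip and of receptor delivery.

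Polyadenylated RNA of the CD-1 mouse dorsal telencephalon, the embryonic tissue from which the neocortex arises, was sequenced in 11 libraries. L3mbtl3 encodes a chromatin protein with malignant brain tumour domains. For the gain comparison, wild-type embryos were electroporated in utero at E12.5 with the plasmid pCIG2-L3mbtl3 (3 libraries) or with the empty pCIG2 plasmid, which expresses GFP (3 libraries), and at E15.5 the GFP-positive cells were isolated by flow sorting. For the loss comparison, unsorted E12.5 dorsal telencephalon was taken from embryos labelled L3mbtl3 knockout (-/-, 2 libraries) and from controls, which were 2 L3mbtl3 heterozygotes (+/-) and 1 wild-type. The GFP-positive cells are those that took up plasmid and their descendants, so the E15.5 libraries sample part of the tissue, and all 6 of them carry GFP and an electroporation that the E12.5 libraries lack.

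In the cilium, trains built from IFT-B and IFT-A are carried outward by a heterotrimeric kinesin (Kif3a, Kif3b and Kifap3) and back by a dedicated dynein (Dync2h1, Dync2li1). The BBSome rides on these trains and removes membrane proteins, while the transition zone at the base is the gate that keeps ciliary membrane apart from plasma membrane. In the developing cortex, apical progenitors extend a primary cilium into the ventricle, where Hedgehog signalling depends on it, and postmitotic neurons build a primary cilium of their own.

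Library totals ran from 16527551 to 26658718 counts. L3mbtl3 had 1517, 1262 and 897 CPM (reads scaled to library depth with TMM factors over all libraries) in the gain libraries, against 54.0, 50.3 and 60.0 CPM in the GFP controls. It had 67.2 and 70.5 CPM in the libraries labelled knockout, against 55.8, 58.0 and 58.3 CPM in the E12.5 controls. These libraries were thus higher, not lower, in reads over the gene (log2 fold change 0.27, SE 0.0539, edgeR adjusted p = 0.0128). Counts summed over all exons do not show whether an exon is deleted, and the E12.5 mutant libraries are therefore called "labelled knockout" throughout. The dorsal telencephalon genes Pax6, Neurog2, Eomes, Tbr1 and Lhx2 were detected in all 11 libraries. The labels do not say whether libraries of a group stem from separate embryos, and p-values here measure only the spread between libraries, which may be technical.

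All 43 genes were expressed in every group and passed the filter on low counts in each comparison. Compared per length, as CPM per kilobase of exon (RPKM), they covered a wide range at E12.5. Arl3, the small GTPase that releases lipidated proteins inside the cilium, was highest, with 48.0, 54.5 and 55.5 RPKM in the E12.5 controls. It was also highest in the GFP controls, with 56.4, 66.3 and 86.9 RPKM. Nphp4, a transition zone scaffold, was lowest in the E12.5 controls, with 2.06, 1.88 and 1.85 RPKM. Bbs10, a chaperonin-like factor needed to assemble the BBSome, was lowest in the GFP controls, with 1.15, 1.42 and 0.613 RPKM. Exon length was the union of all annotated exons, which can understate the level of a gene with long or rarely used exons.

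The subunits of a single motor did not have equal levels per length. Kifap3, the non-motor subunit that ties the kinesin to cargo, had levels of 47.5, 51.8 and 57.1 RPKM in the GFP controls and 25.6, 27.9 and 26.5 RPKM in the E12.5 controls. Kif3b, one of its motor subunits, had 14.8, 14.4 and 11.8 RPKM in the GFP controls and 12.7, 13.8 and 13.1 RPKM in the E12.5 controls. Dync2h1, the heavy chain of the return motor, had 2.93, 1.63 and 1.43 RPKM in the GFP controls and 8.67, 7.83 and 8.58 RPKM in the E12.5 controls. The E12.5 values of each gene lay close together, whereas GFP control 1 stood above the other GFP controls for Dync2h1.

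Several RFX transcription factors are known to drive cilium genes through the X-box, a palindromic promoter sequence, and the promoters were searched for it. RefSeq promoters on GRCm38.p6, of 250 bases before and 50 bases after the start, were available for 39 of the 43 genes. The motif was searched as GTTNCC and GGNAAC with a gap of 1 to 3 letters between them, where N is any base; each spelling is its own reverse complement and so covers both strands, and a promoter with overlapping matches was counted once. It was found without mismatch in 5 of 39 cilium promoters (12.8%), against 0.903% of the promoters of 27025 symbols, and with at most 1 mismatch in 14 of 39 (35.9%), against 5.47%. A match is a description of the sequence and was not tested for binding. The promoters with an exact match are shown because they carry the motif in full, with the match in capitals and up to 20 bases of promoter on each side. The match of Tctn1 lies after the start site.
Bbs7 (chr3:36613477-36613530, minus strand): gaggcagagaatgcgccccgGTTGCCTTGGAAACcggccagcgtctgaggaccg
Ift57 (chr16:49699214-49699266, plus strand): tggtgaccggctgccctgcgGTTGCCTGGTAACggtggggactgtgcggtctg
Mks1 (chr11:87853171-87853224, plus strand): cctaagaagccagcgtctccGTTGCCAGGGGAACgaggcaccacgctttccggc
Tctn3 (chr19:40612339-40612391, minus strand): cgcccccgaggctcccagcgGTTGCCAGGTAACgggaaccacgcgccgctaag
Tctn1 (match alone, chromosome 5, minus strand): GTTGCCCGGGCAAC

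**Figure D1:**
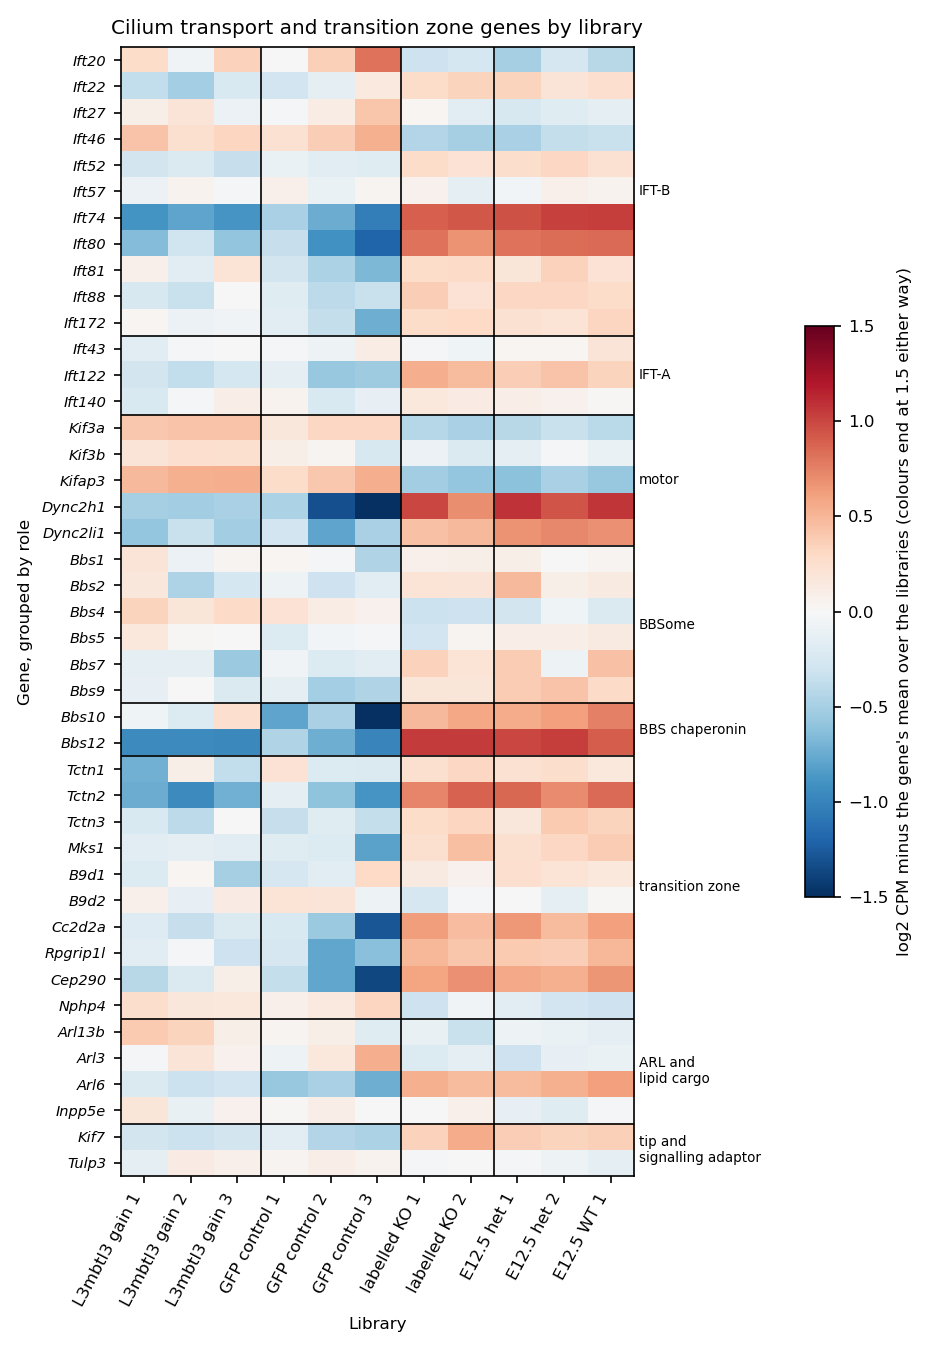
Heat map of the 43 cilium genes (rows, grouped by role) in the 11 libraries (columns), coloured by log2 CPM minus the gene's mean over the libraries. The E15.5 libraries (left 6 columns) differ in colour from the E12.5 libraries (right 5 columns) for most of the 21 genes that fell and the 6 that rose, while within each age the columns look alike for most genes.

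The gain comparison asked whether added L3mbtl3 changed these genes in E15.5 sorted cells. No cilium gene was called, where a call is an adjusted p under 0.05 in the quasi-likelihood test of edgeR, adjusted by the Benjamini-Hochberg method over all 14698 genes tested. The background was as low, since 2 genes in all (0.0136%) were called, 1 higher (0.00680%) and 1 lower (0.00680%). Of the 43 genes, 27 were higher and 16 lower in the gain libraries, with a median log2 fold change of 0.07 beside -0.03 over all genes tested. At an unadjusted p under 0.05 there were 5 cilium genes, and 8.60% of all genes tested, and DESeq2 called 0 of the 43. Gain libraries lay wholly above the GFP controls for 8 of the 43 genes (9.08% of all genes) and wholly below them for 1 (7.50% of all genes). In bulk RNA, fewer cells that express a gene and less RNA per cell cannot be told apart, here and in the comparisons that follow.

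Among the IFT-B genes, Ift81, whose protein pairs with Ift74 to bind tubulin, had the smallest p of the list. It had 49.3, 41.3 and 54.0 CPM in the gain libraries, against 38.5, 33.6 and 29.1 CPM in the GFP controls. The groups did not overlap, and the log2 fold change was 0.52 (SE 0.153, edgeR adjusted p = 0.517). Ift172, a large peripheral subunit of IFT-B, had 69.7, 64.5 and 66.3 CPM in the gain libraries, against 61.5, 53.7 and 41.3 CPM in the GFP controls (log2 fold change 0.36, SE 0.151, edgeR adjusted p = 0.573). The distance between the groups depended on GFP control 3, the lowest library: without it the log2 fold change of Ift172 was 0.22. Ift52, a core IFT-B subunit, was the only one of the 43 genes with every gain library below every GFP control, at 30.8 to 33.6 CPM in the gain libraries and 34.5 to 36.5 CPM in the GFP controls. IFT-B as a whole was split, with 4 genes higher and 7 lower.

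All 5 motor genes had a log2 fold change above 0 in the gain comparison, from 0.04 for Dync2li1 to 0.53 for Dync2h1. Kif3b had 89.9, 94.1 and 93.1 CPM in the gain libraries, against 83.6, 81.1 and 66.6 CPM in the GFP controls, without overlap (log2 fold change 0.27, SE 0.107, edgeR adjusted p = 0.566, and 0.17 without GFP control 3). Dync2h1 was uniform in the gain libraries, at 46.8, 46.1 and 47.1 CPM, and varied in the GFP controls, at 47.4, 26.4 and 23.0 CPM. Whether it was called rested on GFP control 1, which was as high as the gain libraries. Without that library Dync2h1 rose, with a log2 fold change of 0.94 (edgeR adjusted p = 0.0388). In that fit 415 of 14992 genes (2.77%) were called, and Dync2h1 was the single cilium gene among them.

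Of the BBS genes, 5 of 6 BBSome subunits were higher and 1 was lower, with log2 fold changes from -0.13 for Bbs7 to 0.25 for Bbs9. Bbs10 had the largest fold change of the list in the gain comparison, at 5.22, 4.75 and 6.49 CPM in the gain libraries against 3.17, 3.91 and 1.69 CPM in the GFP controls (log2 fold change 0.92, SE 0.339, edgeR adjusted p = 0.554). The other listed chaperonin-like gene, Bbs12, had a value in the opposite direction, with a log2 fold change of -0.24. In the transition zone, 6 of 10 genes were higher and 4 lower. Cep290, which links the microtubules to the membrane at the base of the cilium, had 30.9, 35.6 and 44.0 CPM in the gain libraries, against 32.4, 24.1 and 16.0 CPM in the GFP controls, so that the groups overlapped (log2 fold change 0.61, edgeR adjusted p = 0.584). Tctn2, a transition zone membrane protein, had the lowest fold change of the 43 genes, at -0.29.

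The GFP controls differed among themselves more than the gain libraries did, and every value of the gain comparison is set against them. Summed over 13 apical progenitor genes, the gain libraries lay between 1690 and 1725 CPM, while the GFP controls had 2414, 1863 and 1085 CPM. Summed over 12 genes of S and G2/M phase, the gain libraries had 896 to 1075 CPM, and the GFP controls had 1817, 1128 and 602 CPM. Over 14 neuronal genes the gain libraries had 11805 to 11833 CPM, and the GFP controls had 9619, 11982 and 14825 CPM. GFP control 1 was the highest GFP control for 26 of the 43 cilium genes (40.3% of all genes tested) and GFP control 3 the lowest for 22 (42.1% of all genes tested). Summed over 10 ventral telencephalon markers, the gain libraries had 251, 237 and 28.0 CPM, and the GFP controls had 897, 301 and 26.5 CPM. Over 10 microglial markers the gain libraries had 5.95 to 9.13 CPM and the GFP controls 15.8 to 41.1 CPM, and over 8 endothelial markers the gain libraries had 2.97 to 5.64 CPM and the GFP controls 10.9 to 14.2 CPM. The part of any of these in the cilium values was not tested. Fold change and exon length also moved together, with a Spearman rho of 0.388 over the 43 genes and 0.263 over all 14698, as a description across genes of the same libraries.

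Other genes of the cilium gave the same count. None of 15 tested further IFT and motor genes, 4 further BBSome genes, 14 further transition zone genes, 22 basal body and ciliogenesis genes, 7 transcription factor genes (the RFX family and Foxj1) or 9 ciliary receptors and Hedgehog components was called in the gain comparison by edgeR. At an unadjusted p under 0.05 there were 1, 2, 2, 2, 1 and 0 of them in that order.

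The loss comparison asked the same of E12.5 tissue labelled knockout, and here the measurements were tighter. None of the 43 cilium genes was called by edgeR, while 1213 of 16361 genes (7.41%) were, 3.63% higher and 3.78% lower. At an unadjusted p under 0.05 there were 4 cilium genes, against 22.0% of all genes tested. DESeq2 called 0 of the 43, and its count over all genes in this comparison is not given here. The genes were split evenly, with 21 higher and 22 lower and a median log2 fold change of -0.00, the same as over all genes tested. Fold changes ran from -0.23 for Dync2li1 to 0.15 for Inpp5e, and the 95% intervals of all 43 lay between -0.49 and 0.35 on the log2 scale. In the gain comparison the intervals reached from -0.83 to 1.71, and 19 of 43 lay within 0.5 of 0 on both sides, against 43 of 43 here. The libraries labelled knockout lay wholly above the controls for 4 cilium genes (18.6% of all genes) and wholly below them for 9 (20.0%).

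The 4 genes with the smallest p had small differences. Dync2li1, the light intermediate chain of the return motor, had 18.3 and 19.0 CPM in the libraries labelled knockout, against 21.5, 22.2 and 21.7 CPM in the E12.5 controls (log2 fold change -0.23, SE 0.0715, edgeR adjusted p = 0.0819). Bbs9, a BBSome scaffold subunit, had 22.4 and 22.5 CPM in the libraries labelled knockout, against 25.8, 26.6 and 24.1 CPM in the E12.5 controls (log2 fold change -0.18, SE 0.0700, edgeR adjusted p = 0.151). Neither gene's groups overlapped, and the same held for Ift122 and Inpp5e. Ift122, a core IFT-A subunit, had 50.8 and 48.6 CPM in the libraries labelled knockout, against 45.0, 46.9 and 43.9 CPM in the E12.5 controls (log2 fold change 0.14, SE 0.0554, edgeR adjusted p = 0.168). Inpp5e, the phosphoinositide phosphatase that sets the lipid content of the ciliary membrane, had 38.7 and 41.1 CPM in the libraries labelled knockout, against 35.7, 34.4 and 37.9 CPM in the E12.5 controls (log2 fold change 0.15, SE 0.0635, edgeR adjusted p = 0.194).

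Dync2h1 was again the gene whose call depended on the setting. It had 132 and 107 CPM in the libraries labelled knockout, against 140, 127 and 139 CPM in the E12.5 controls, and the groups overlapped (log2 fold change -0.17, edgeR adjusted p = 0.358). Without labelled knockout replicate 1 it fell, with a log2 fold change of -0.33 (edgeR adjusted p = 0.00472), in a fit that called 10.6% of all genes and assumed that the lone library varied like the controls. With no filter on low counts it was also called lower, at a log2 fold change of -0.17 (edgeR adjusted p = 0.0102), beside 8.58% of all genes.

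**Figure D2:**
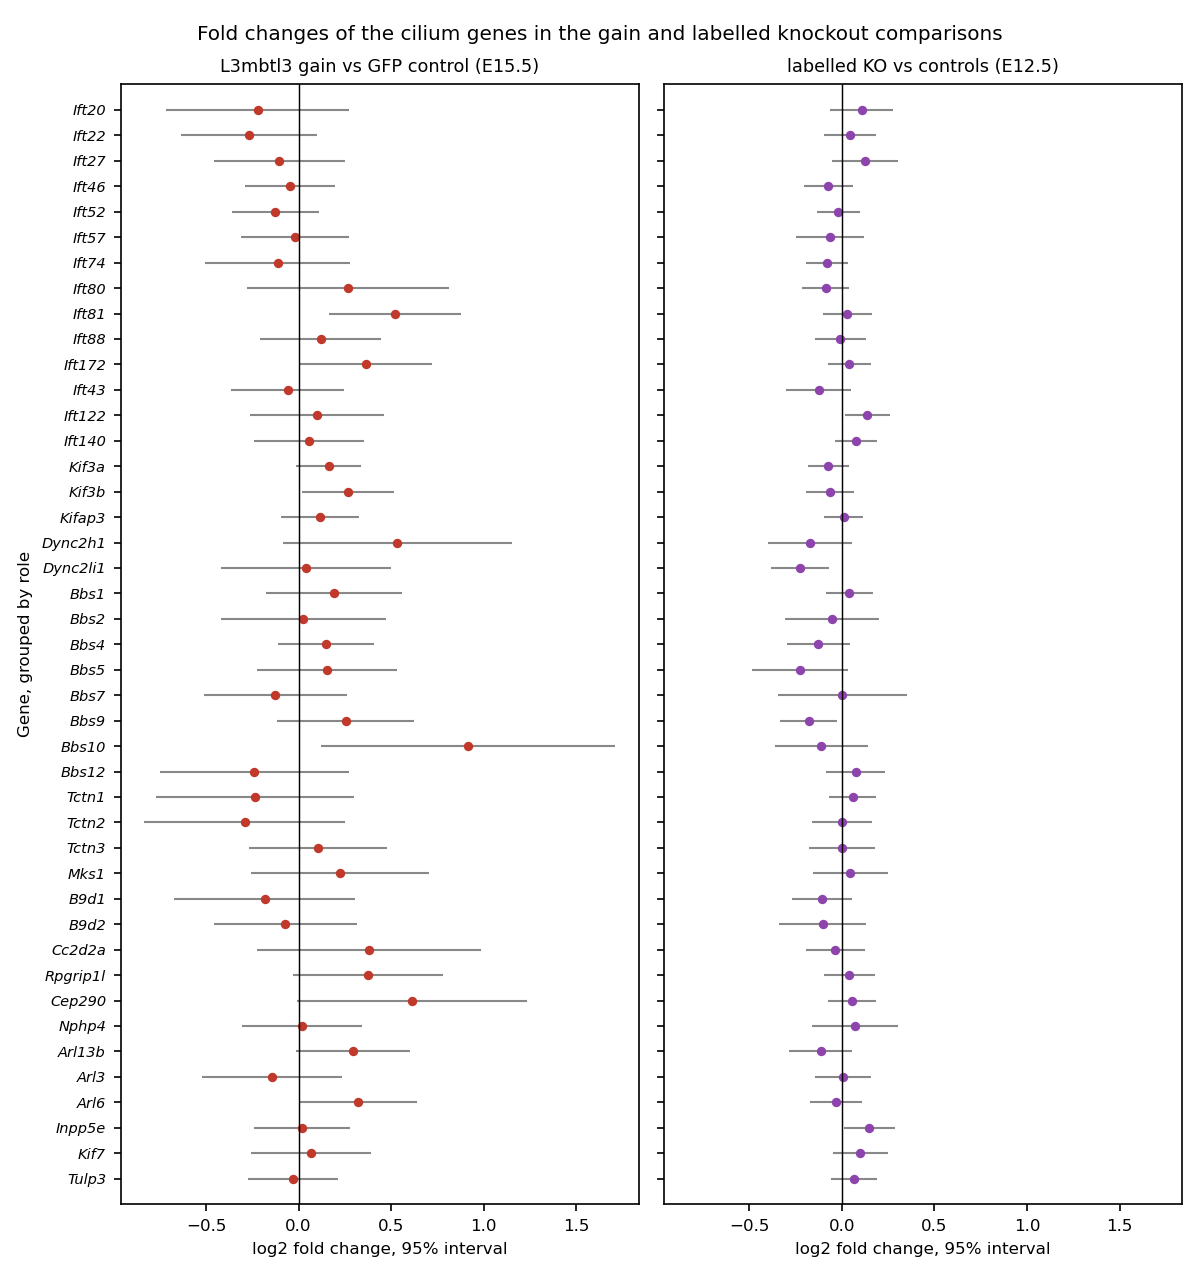
Log2 fold changes (points) with 95% intervals (lines) of the 43 cilium genes, grouped by role, in L3mbtl3 gain against GFP control (left) and labelled knockout against E12.5 controls (right), on a shared axis. The intervals at the right all lie between -0.49 and 0.35, and those at the left reach from -0.83 to 1.71.

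In other cilium lists, few genes were called in the labelled knockout tissue outside those of motile cilia. None of the further IFT and motor, BBSome, transition zone, transcription factor or receptor genes was called by edgeR, with 1 of 16, 0 of 4, 2 of 14, 3 of 7 and 4 of 9 at an unadjusted p under 0.05. Of 22 basal body and ciliogenesis genes 7 had an unadjusted p under 0.05 and 2 were called: Kif24, a kinesin that restrains cilium assembly, rose (log2 fold change 0.21, SE 0.0564, edgeR adjusted p = 0.0437) and Cep97, its partner at the distal centriole, fell (log2 fold change -0.19, SE 0.0522, edgeR adjusted p = 0.0461). Motile cilium genes encode parts of the beating axoneme that primary cilia lack, and 9 of 23 tested fell while none rose. They included the dynein heavy chains Dnah9 (log2 fold change -1.24, SE 0.118, edgeR adjusted p = 0.000144) and Dnah11 (-1.26), the radial spoke gene Rsph1 (-0.92) and the central pair gene Hydin (-1.07). Choroid plexus epithelium carries motile cilia, and 9 of 11 tested choroid plexus markers fell with them. Summed over the 12 listed, these markers had 271 and 266 CPM in the libraries labelled knockout, against 563, 634 and 640 CPM in the E12.5 controls, and their part in the motile cilium values was not tested.

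The largest differences in the cilium genes lay between E15.5 sorted GFP control cells and E12.5 control tissue. These groups differ in age, in sorting and in electroporation, and the E12.5 controls include L3mbtl3 heterozygotes while the GFP controls are wild-type. Such differences cannot be told apart. Both groups also share their libraries with the gain and loss comparisons, so the comparisons are not independent. Of the 43 genes 27 were called, 6 that rose and 21 that fell, while 62.3% of 15968 genes tested were called, 31.1% higher and 31.3% lower. The count called is thus near the background, and fewer rose than fell. The median log2 fold change of the cilium genes was -0.40, beside -0.02 over all genes. GFP controls lay wholly above the E12.5 controls for 10 cilium genes (34.7% of all genes) and wholly below them for 23 (37.7%), and 72.4% of all genes did not overlap in either direction. At an unadjusted p under 0.05 there were 31 cilium genes and 66.2% of all genes. With library totals in place of TMM scaling the split was 4 risen and 29 fallen, the median over all genes being -0.30 and that of the cilium genes -0.67. The shares of all genes called in that fit are not given here, so this split cannot be read as particular to the cilium genes.

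Of the 5 listed motor genes, the kinesin genes that were called rose and the dynein genes fell. Kifap3 had 191, 208 and 229 CPM in the GFP controls, against 103, 112 and 106 CPM in the E12.5 controls. The lowest GFP control was well above the highest E12.5 control, and the log2 fold change was 0.97 (SE 0.0921, edgeR adjusted p = 0.000208). Kif3a rose as well, with 117, 129 and 128 CPM in the GFP controls against 77.9, 82.2 and 78.4 CPM in the E12.5 controls (log2 fold change 0.65, SE 0.0755, edgeR adjusted p = 0.000441). Kif3b, the partner of Kif3a, had a log2 fold change of 0.06 (SE 0.103, edgeR adjusted p = 0.655). Dync2h1 had the largest change of the 43 genes, with 47.4, 26.4 and 23.0 CPM in the GFP controls against 140, 127 and 139 CPM in the E12.5 controls (log2 fold change -2.06, SE 0.268, edgeR adjusted p = 0.00077). Dync2li1 fell with it, with 11.1, 7.83 and 9.64 CPM in the GFP controls against 21.5, 22.2 and 21.7 CPM in the E12.5 controls (log2 fold change -1.19, SE 0.154, edgeR adjusted p = 0.000728). For the dynein chains every GFP control lay below every E12.5 control.

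Within IFT-B, 2 genes rose, 6 fell and 3 did not pass the test, where 31.1% of all genes tested rose and 31.3% fell. Ift74, which forms a dimer with Ift81, had 27.2, 22.6 and 18.5 CPM in the GFP controls against 73.4, 77.0 and 77.6 CPM in the E12.5 controls (log2 fold change -1.73, SE 0.144, edgeR adjusted p = 0.000131). Ift80, a subunit at the periphery of the train, had 28.6, 19.4 and 15.9 CPM in the GFP controls against 64.3, 65.0 and 65.9 CPM in the E12.5 controls (log2 fold change -1.60, SE 0.208, edgeR adjusted p = 0.000762). For both genes the E12.5 values were tight, and GFP control 1 was the highest and GFP control 3 the lowest of the GFP controls. Ift81, Ift172, Ift88 and Ift52 fell by less, with log2 fold changes of -0.71, -0.64, -0.60 and -0.41. The genes that rose were Ift46 and Ift20. Ift46, a core subunit, had 97.2, 107 and 120 CPM in the GFP controls against 59.3, 64.6 and 65.4 CPM in the E12.5 controls (log2 fold change 0.78, SE 0.102, edgeR adjusted p = 0.000771). Ift20, which also sorts ciliary membrane proteins at the Golgi, had 34.5, 44.2 and 60.2 CPM in the GFP controls against 24.3, 28.7 and 25.7 CPM in the E12.5 controls (log2 fold change 0.82, SE 0.208, edgeR adjusted p = 0.0124). The call of Ift20 was lost without heterozygote replicate 1, at a log2 fold change of 0.77 and an edgeR adjusted p of 0.0524. Of the 3 IFT-A genes, Ift122 fell (log2 fold change -0.77, SE 0.137, edgeR adjusted p = 0.00292), while Ift43 and Ift140 had log2 fold changes of -0.07 and -0.15.

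Bbs10 and Bbs12, the listed chaperonin genes for BBSome assembly, had larger falls than any of the 6 listed subunits. Mkks, a further chaperonin gene of this kind outside the 43 and named after its value was seen, had a log2 fold change of -0.22 (SE 0.115, edgeR adjusted p = 0.133) and was not called. Bbs12 had 7.29, 5.99 and 5.01 CPM in the GFP controls against 20.0, 20.4 and 18.8 CPM in the E12.5 controls (log2 fold change -1.69, SE 0.168, edgeR adjusted p = 0.000248). Bbs10 had 3.17, 3.91 and 1.69 CPM in the GFP controls against 8.06, 8.38 and 9.26 CPM in the E12.5 controls (log2 fold change -1.55, SE 0.305, edgeR adjusted p = 0.0045). Among the 6 BBSome subunits, log2 fold changes ran from -0.72 for Bbs9 to 0.32 for Bbs4. Bbs9 and Bbs2 fell, Bbs4 rose, and Bbs1, Bbs5 and Bbs7 did not pass the test. Bbs4, which helps to target the complex to centriolar satellites, had 32.5, 30.1 and 29.1 CPM in the GFP controls against 23.0, 26.6 and 24.0 CPM in the E12.5 controls (log2 fold change 0.32, SE 0.106, edgeR adjusted p = 0.0336). Its fold change shrank to 0.05 with library totals only (edgeR adjusted p = 0.707). The calls of both Bbs2 and Bbs4 were lost without GFP control 2 and without each E12.5 control in turn, with edgeR adjusted p between 0.0556 and 0.154 in those fits. The difference in fold change between Bbs10 or Bbs12 and the subunits was not tested. Arl6, the small GTPase that recruits the BBSome to membranes, fell, with 15.4, 16.4 and 13.7 CPM in the GFP controls against 31.9, 33.0 and 34.9 CPM in the E12.5 controls (log2 fold change -1.13, SE 0.112, edgeR adjusted p = 0.000241).

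At the transition zone 6 of 10 genes fell and 1 rose, where 31.3% of all genes tested fell and 31.1% rose. The groups by role were not tested against these shares. Cep290 had 32.4, 24.1 and 16.0 CPM in the GFP controls against 61.2, 60.1 and 65.4 CPM in the E12.5 controls (log2 fold change -1.36, SE 0.238, edgeR adjusted p = 0.00271). Tctn2, Cc2d2a and Rpgrip1l, all parts of the membrane diffusion barrier, had log2 fold changes of -1.31, -1.21 and -0.95, and Mks1 and Tctn3 had -0.68 and -0.59. All of these fell, though the call of Mks1 was lost without each E12.5 control in turn, at an edgeR adjusted p of 0.0544 to 0.0734. Nphp4 went the other way, with 14.6, 15.4 and 17.3 CPM in the GFP controls against 12.4, 11.3 and 11.2 CPM in the E12.5 controls (log2 fold change 0.44, SE 0.132, edgeR adjusted p = 0.0233). Its call was lost without each E12.5 control in turn, at an edgeR adjusted p of 0.0612 to 0.0978, and its log2 fold change was 0.17 with library totals only (edgeR adjusted p = 0.253). Tctn1, B9d1 and B9d2 did not pass the test, with log2 fold changes of -0.27, -0.22 and 0.15.

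Of the genes for lipidated cargo and for the tip, only Arl6 and Kif7 were called. Arl13b, a GTPase that activates Arl3 and marks the ciliary membrane, had 29.3, 30.4 and 25.1 CPM in the GFP controls, beside 27.0, 26.4 and 25.8 CPM in the E12.5 controls (log2 fold change 0.10, interval -0.16 to 0.36). Kif7, which organises the ciliary tip for Gli processing, fell, with 24.4, 20.2 and 19.6 CPM in the GFP controls against 35.3, 34.3 and 35.0 CPM in the E12.5 controls (log2 fold change -0.70, SE 0.116, edgeR adjusted p = 0.00208). Tulp3, which hands receptors such as Gpr161 to IFT-A, had a log2 fold change of 0.14 (interval -0.05 to 0.34).

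**Figure D3:**
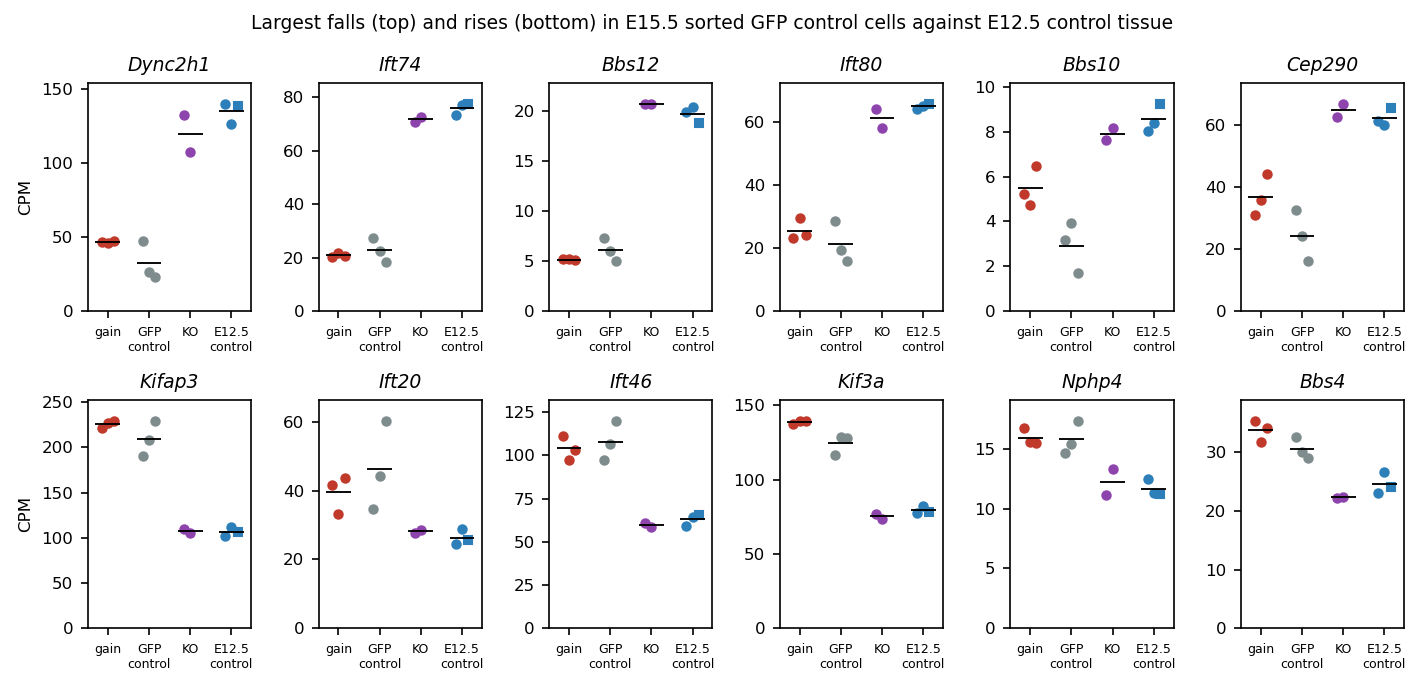
CPM per library (points; squares are the wild-type E12.5 control) with group means (lines) for the 6 cilium genes with the largest falls (top row) and the 6 that rose (bottom row) in GFP control against E12.5 control libraries. In the top row the gain and GFP control points lie below the labelled knockout and E12.5 control points, as with Ift74 at 18.5 to 27.2 CPM in the GFP controls and 73.4 to 77.6 CPM in the E12.5 controls, and in the bottom row they lie above.

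Further genes of these complexes, outside the 43, were counted in the same contrast of GFP controls with E12.5 controls, where 31.1% of all genes tested rose and 31.3% fell. No list was tested against that background. Of 16 further IFT and motor genes 2 rose and 6 fell, including the IFT-A gene Wdr35 (log2 fold change -1.65, SE 0.176, edgeR adjusted p = 0.000329) and the dynein intermediate chain gene Wdr60 (-1.04). Another intermediate chain gene of the same motor, Wdr34, rose (log2 fold change 0.94, SE 0.165, edgeR adjusted p = 0.0028). Of 4 further BBSome genes 2 fell, Ttc8 (-0.85) and Lztfl1 (-0.54), and none rose. Of 14 further transition zone genes 6 fell and none rose, and Tmem107 (-1.38) was among those that fell. Basal body and ciliogenesis genes were divided, with 8 that rose and 10 that fell of 22. Of 7 transcription factor genes, Foxj1 and 6 of the RFX family, 6 fell and none rose. Foxj1 and several RFX factors, such as Rfx2 and Rfx3, are known to drive cilium genes, whereas Rfx5 is known for MHC class II genes. Foxj1 had a log2 fold change of -2.79 (SE 0.232, edgeR adjusted p = 0.00013), Rfx4 of -2.72 and Rfx5 of -0.59, and Rfx2 fell too. Among 9 receptors and Hedgehog components, Sstr3, a somatostatin receptor of neuronal cilia, rose (log2 fold change 2.52, SE 0.186, edgeR adjusted p = 8.56e-05), as did Gpr161 (0.74). The Hedgehog genes were divided: Smo (-1.38) and Gli3 (-1.76) fell, while Ptch1, Sufu, Gli1 and Gli2 were not called.

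Cell type markers moved across the same libraries. Of 14 neuronal genes 12 rose, and their summed level was 9619 to 14825 CPM in the GFP controls against 2717 to 3067 CPM in the E12.5 controls. Of 13 apical progenitor genes 9 fell, with sums of 1085 to 2414 CPM in the GFP controls against 3809 to 3909 CPM in the E12.5 controls. All 12 genes of S and G2/M phase fell, with sums of 602 to 1817 CPM in the GFP controls against 3783 to 3890 CPM in the E12.5 controls. The choroid plexus list summed to 10.6 to 22.7 CPM in the GFP controls and to 563 to 640 CPM in the E12.5 controls, and the 8 endothelial genes summed to 10.9 to 14.2 CPM in the GFP controls and to 361 to 431 CPM in the E12.5 controls. Of 23 tested motile cilium genes 22 fell. Summed over the 43 cilium genes the level was 1462 to 1525 CPM in the GFP controls and 1736 to 1762 CPM in the E12.5 controls. This gap is narrow beside those of the markers, but genes that rose and genes that fell offset each other in the sum. The transition zone genes summed to 156 to 202 CPM in the GFP controls against 283 to 295 CPM in the E12.5 controls. The motor genes summed to 450 to 457 CPM in the GFP controls against 414 to 421 CPM in the E12.5 controls. Across genes, the Spearman rho of log2 fold change with exon length was -0.321 over the 43 cilium genes and -0.039 over all genes tested. In the labelled knockout comparison these values were 0.23 and 0.006. The part of cell makeup or of exon length in the cilium values was not tested.

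**Figure D4:**
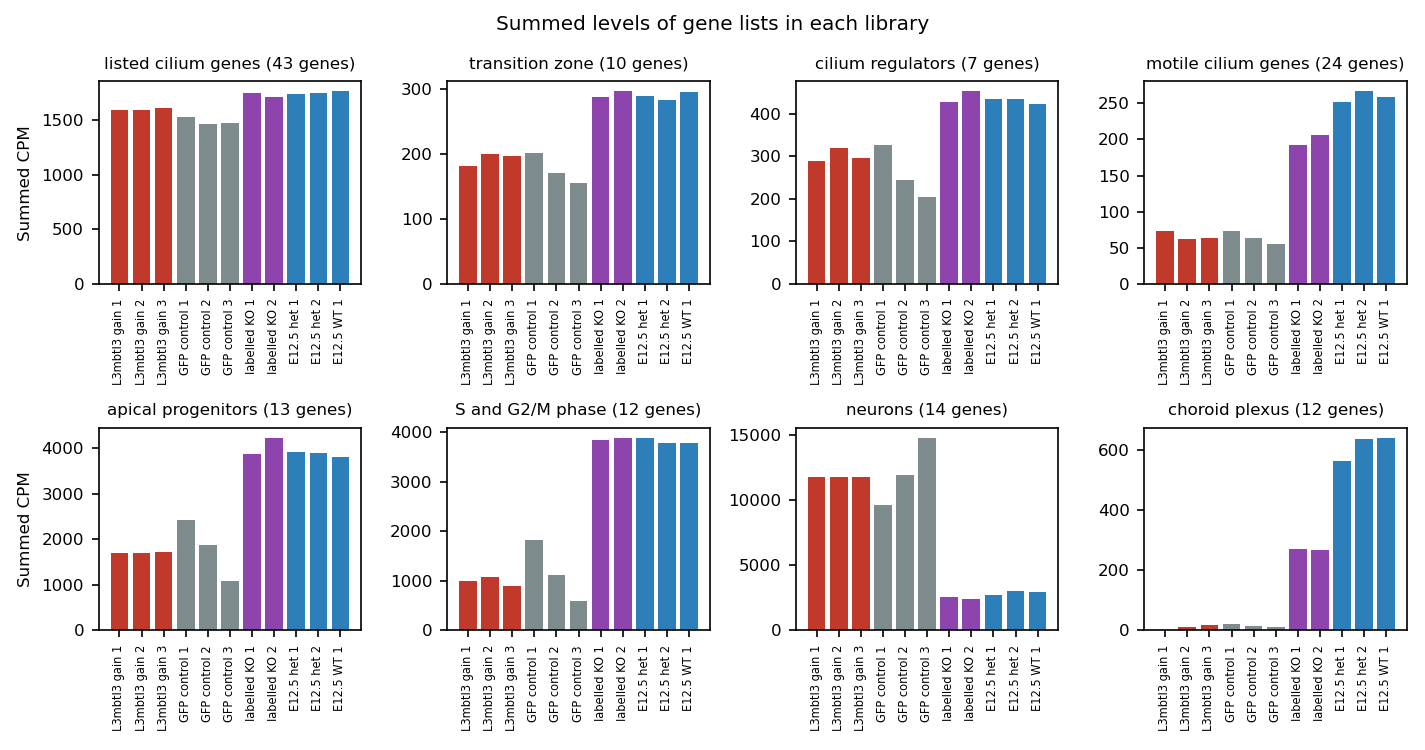
Summed CPM of 8 gene lists in each of the 11 libraries (bars, from 0; red gain, grey GFP control, purple labelled knockout, blue E12.5 controls). The 43 cilium genes sum to 1462 to 1612 CPM in the E15.5 libraries and 1705 to 1762 CPM in the E12.5 libraries. Rises and falls of single genes offset each other in that sum. The neuronal, progenitor, cell cycle, motile cilium and choroid plexus lists differ by more between the ages. The GFP controls differ among themselves in the progenitor and cell cycle lists.

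The same contrast of age and preparation could be drawn from the other libraries, with gain libraries at E15.5 and libraries labelled knockout at E12.5, a setting added after the data were seen. It shares no library with the control contrast, although age, sorting, electroporation and L3mbtl3 status all differ in it. Of 16339 genes tested 70.1% were called, 33.9% higher and 36.2% lower, and of the 43 cilium genes 9 rose and 22 fell, with a median log2 fold change of -0.35. All 6 genes that rose and all 21 that fell in the control contrast had the same direction here, and 6 and 19 of them were called again. The share of all called genes that kept their direction was not counted, so the agreement cannot be read as particular to the cilium genes. Ift81 and Bbs2 were the fallen genes not called again.

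**Figure D5:**
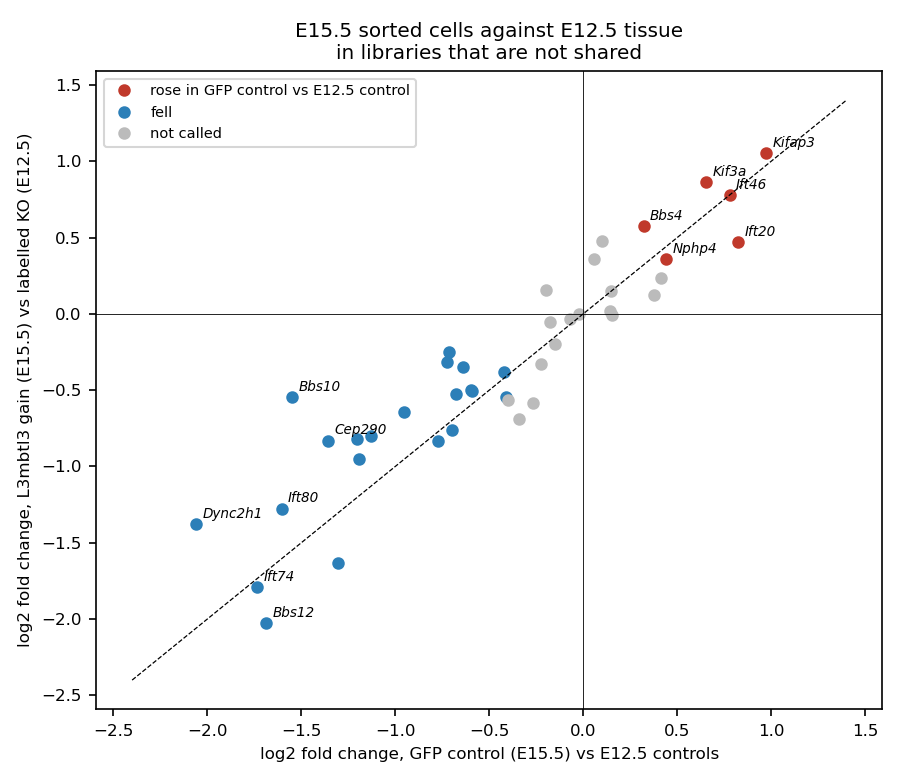
Log2 fold change of the 43 cilium genes in gain (E15.5) against labelled knockout (E12.5) libraries (vertical axis) and in GFP control (E15.5) against E12.5 control libraries (horizontal axis), with a dashed line of equality. The 6 genes that rose in the control contrast lie above 0 and the 21 that fell lie below 0 on both axes, with Kifap3 and Dync2h1 at the ends of the horizontal axis.

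The X-box motif searched for above was matched in promoters of genes of both directions only when 1 mismatch was allowed. Without mismatch it was found in 2 of 17 promoters of genes that fell and in 0 of 6 of genes that rose. With at most 1 mismatch it was found in 5 of 17 promoters of genes that fell, in 2 of 6 of genes that rose and in 7 of 16 of genes that were not called in the contrast of GFP controls with E12.5 controls. Of the exact matches, Mks1 and Tctn3 fell (log2 fold changes -0.68 and -0.59), while Bbs7, Ift57 and Tctn1 were not called (-0.40, -0.02 and -0.27). The called genes with 1 mismatch are shown next, with those that fell before those that rose, since such matches occurred in promoters of both directions. The match of Bbs4 lies after the start site, as does the exact match of Tctn1.
Tctn2 (chr5:124598667-124598720, plus strand): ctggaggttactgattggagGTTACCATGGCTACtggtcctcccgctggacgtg
Cc2d2a (chr5:43662333-43662385, plus strand): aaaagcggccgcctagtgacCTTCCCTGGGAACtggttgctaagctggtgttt
Ift52 (chr2:163017326-163017378, plus strand): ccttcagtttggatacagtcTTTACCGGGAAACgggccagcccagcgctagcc
Nphp4 (chr4:152477892-152477944, plus strand): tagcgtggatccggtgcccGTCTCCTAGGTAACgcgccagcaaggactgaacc
Bbs4 (match alone, chromosome 9, minus strand): GTCGCCCGGGAAAC
The promoters of Dync2h1, with the largest fall, and Kifap3, with the largest rise, held no match with at most 1 mismatch, which says only that these letters are not in these windows.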

How the data were processed

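Per the labels' protocols, stranded libraries of polyadenylated RNA were read from a single end over 75 bases. The authors deposited raw read counts per gene, made with featureCounts 2.0.1 with reverse-strand counting over exons of an Ensembl GRCm38 annotation, per the file headers. HISAT2 2.2.1, SAMtools 1.9, CASAVA 1.9, FastQC 0.11.8 and deepTools 3.3.0 are named in the submitters' processing notes. The annotation release and the handling of reads that map to several places were not given in the sources used here. Exons of Bbs12 overlap another gene on the same strand over 1.31% of their length, and those of the other 42 listed genes overlap none.

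Genes that passed filterByExpr were scaled with TMM factors and tested in R 4.3.3 by the robust quasi-likelihood method of edgeR 4.0.16, separately for each comparison, two-sided, with Benjamini-Hochberg adjustment over all genes tested and a threshold of 0.05. The SE is the absolute log2 fold change divided by the square root of the F statistic, and 95% intervals use the t quantile at edgeR's degrees of freedom. CPM carry TMM factors over all 11 libraries. Depth was 18266535 to 20895655 counts at E15.5 and 16527551 to 26658718 at E12.5. No libraries within a group agreed within sampling noise (chi-square per degree of freedom 2.60 to 94.4). Alternatives were DESeq2 1.42.0, other scaling, no filter, 1 fit over all libraries, a replicate block and leaving out each library. Genes were named by role. Full statistics went to at most 6 called genes per direction, those of largest fold change, or to the 4 with the smallest p where fewer than 3 were called, and up to 4 called genes per direction were named from other lists; the genes whose calls changed with a setting were added after their values were seen. The listed genes and the other lists were chosen with earlier results of these data known. The values of some single genes are not reported here, though counts and sums over lists include them.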

Additional observations from a re-analysis of the deposited data

How the results depend on the processing

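No recomputed log2 fold change of a single listed gene reversed its direction under the alternatives run: 4 genes were followed in each of the gain and labelled knockout comparisons and 27 between GFP controls and E12.5 controls. Medians near 0 did change sign. The median of the 43 genes in the labelled knockout comparison was -0.00, and 0.01 without the wild-type library, and the median of all genes in the gain comparison was -0.03, and 0.00 without GFP control 1. The count of called cilium genes in the gain comparison stayed at 0 under DESeq2, other scaling, no filter, 1 fit over 11 libraries and the replicate block, and ran from 0 to 1 with a library left out, the 1 being Dync2h1 without GFP control 1. In the labelled knockout comparison the count was 1 with no filter and ran from 0 to 1 with a library left out, the 1 again being Dync2h1. The 27 calls between GFP controls and E12.5 controls became 24 to 33 under other settings and 22 to 31 with a library left out. In the main fit 62.3% of all genes tested were called. The shares in the other fits are not given here, so these counts show only how the calls moved. The 6 risen genes became 3 without heterozygote replicate 1. With library totals only, log2 fold changes were 0.54 for Ift20, 0.50 for Ift46, 0.38 for Kif3a, -0.69 for Bbs2 and -0.68 for Ift52, all of them called. The number of all genes called in the gain comparison was 2 with edgeR, 122 with DESeq2, 415 without GFP control 1 and 0 without GFP control 2. In the labelled knockout comparison it was 1213, and 15 with 1 fit over 11 libraries.

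Not every pair of same-numbered libraries deviated together. The correlations of their deviations were 0.179, 0.005 and 0.297 in the gain comparison; gain replicates 1 and 3 correlated best with the GFP control of their own number, but gain replicate 2 correlated best with GFP control 1 (0.142), so the numbers were not taken as pairs. With a replicate block 0 cilium genes were called in the gain comparison, 0 in the labelled knockout comparison and 29 between GFP controls and E12.5 controls. In the last of these the block joined libraries of different age by number alone, and GFP control 3 had no E12.5 library of its number. The share of all genes called with the block is not given here.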

Other observations

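The cilium genes varied less between replicate libraries than a typical gene in 3 of 4 groups. Their median coefficient of variation was 8.60% in the gain libraries (8.40% over all genes tested), 13.7% in the GFP controls (18.4%), 3.18% in the libraries labelled knockout (5.56%) and 4.52% in the E12.5 controls (5.60%). In the GFP controls Dync2h1 varied most, at 41.0%, and in the E12.5 controls Bbs7 did, at 18.6%. In the gain libraries Tctn1, a transition zone glycoprotein gene, varied most, at 28.5%, with 21.4, 37.6 and 27.4 CPM. Abundance differs between the listed genes and all genes tested, and its part in this difference was not tested.

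Foxj1, the regulator of motile cilia, was low in every E15.5 library, with 3.21, 4.33 and 3.28 CPM in the gain libraries and 6.24, 5.45 and 3.38 CPM in the GFP controls. It had 26.5 and 34.3 CPM in the libraries labelled knockout, against 32.0, 37.9 and 34.6 CPM in the E12.5 controls, and the groups overlapped (log2 fold change -0.19, edgeR adjusted p = 0.394), while 9 of 23 motile cilium genes fell there.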
